A study of Rattus norvegicus with 6 samples.

Results

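The rows annotated as V segments were examined in lung RNA of wild-type (WT) rats and of rats of the crTMPRSS2 knockout (KO) line, 3 of each. V segments are the variable gene segments of immunoglobulins and T cell receptors. The count table holds 292 such rows among 40995, and the 111 rows with at least 10 counts in 2 or more libraries were taken as members, whatever the genotype of those libraries. Of the other V segment rows, 59 were at 0 in all 6 libraries and 122 had counts but lay under the threshold. All 6 rats had a Sprague-Dawley background and received no treatment. The KO line was made by CRISPR/Cas9 editing of Tmprss2, an epithelial serine protease gene, and the WT rats carry no such edit. Sex, age, litter and the number of founders of the line were not stated in the sources used here.

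B and T lymphocytes build their antigen receptors by joining one V segment to a D or J segment, a step carried out by the RAG recombinase. Each lymphocyte clone therefore transcribes mainly the V segments it has joined, and the V segment reads of a tissue add up over its clones. Heavy chains pair with kappa or lambda light chains to make antibody, which plasma cells secrete in large amounts, while T cells join segments at the alpha, beta, gamma and delta receptor loci.

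By the descriptions in the count table, 34 members belonged to the immunoglobulin heavy locus, 65 to the kappa locus, 5 to the T cell receptor alpha/delta locus and 7 to the beta locus. The heavy members lie on chromosome 6 between 132514653 and 136945192 of the build mRatBN7.2, all on the minus strand. The kappa members lie on chromosome 4 between 96746165 and 102366627, 32 on the plus and 33 on the minus strand. The beta members lie on chromosome 4 between 69745502 and 70079169, and the alpha/delta members on chromosome 15 between 25718212 and 27665582. Neither of the 2 lambda rows nor the 1 gamma row reached the threshold. The descriptions name each row after its closest human or mouse protein, so that a row called here kappa 2-30-like is a rat segment whose closest entry is human kappa variable 2-30.

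In 2 members the gene model reaches a constant region, the part of the receptor chain that does not vary. Ighv (chromosome 6, 132514653 to 133278116) is described as the heavy constant mu region of IgM and spans other V segment rows. LOC685078 (chromosome 15, 27599571 to 27665582) is described as the T cell receptor alpha constant region. Ighv alone held 72.9% to 83.5% of the counts of the heavy members, so locus values are given for the other 33 heavy and 4 alpha/delta rows and these 2 rows are described apart.

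RefSeq promoter windows of the assembly GRCr8 were found for 2 members, both kappa segments. They are shown because immunoglobulin V promoters are known for an octamer, ATTTGCAT, that binds the Oct factors and serves B cell transcription. Each window runs 5′ to 3′ on the minus strand, from 250 bases before the gene start to 50 after it. Capitals mark the match to the octamer, or to its last 7 bases where the whole octamer is missing.
Igkv5-45l1 (LOC102550533, GRCr8 chr4:103029329-103029628): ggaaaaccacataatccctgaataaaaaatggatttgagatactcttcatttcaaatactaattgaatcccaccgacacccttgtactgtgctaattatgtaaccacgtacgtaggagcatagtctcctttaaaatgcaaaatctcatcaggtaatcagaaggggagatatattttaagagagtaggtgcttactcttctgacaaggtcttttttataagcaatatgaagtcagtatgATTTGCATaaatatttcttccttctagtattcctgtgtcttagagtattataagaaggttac
Igkv8-30l1 (LOC102551491, GRCr8 chr4:103389072-103389371): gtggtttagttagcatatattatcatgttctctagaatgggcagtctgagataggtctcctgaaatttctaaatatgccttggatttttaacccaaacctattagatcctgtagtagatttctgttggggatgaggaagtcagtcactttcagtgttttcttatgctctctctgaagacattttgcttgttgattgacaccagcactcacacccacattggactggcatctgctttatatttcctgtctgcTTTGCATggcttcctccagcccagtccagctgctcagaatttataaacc

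The first window holds ATTTGCAT at bases 239 to 246, and farther upstream an unmarked ATGCAAA, the short form on the other strand. The second holds only TTTGCAT, at bases 252 to 258, which lie after the gene start. Searched on both strands, ATTTGCAT or ATGCAAAT was present in 595 of 33469 RefSeq promoter windows of the same length (1.78%), and TTTGCAT or ATGCAAA, which the octamer contains, in 1566 (4.68%). Counts of LOC102550533 (L7-like) were 0, 14 and 8 in WT replicates 1 to 3 and 4, 19 and 30 in KO replicates 1 to 3, and the groups overlapped. Those of LOC102551491 (kappa 4-1-like) were 37, 39 and 8 in WT and 57, 72 and 43 in KO, every KO library above every WT library.

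V segment reads were a small share of each library. Total counts were 33033732 to 36895162 in WT and 29933359 to 30514778 in KO, and the 111 members took 0.00930% to 0.0246% of them. Without the 2 constant-region rows the members held 1633, 2203 and 1403 counts in WT replicates 1 to 3 and 3381, 3766 and 2912 in KO replicates 1 to 3. A count of 0 allows up to 3 counts, or 0.0804 to 0.102 CPM (counts per 1000000 counts, on TMM-normalized library sizes), and this covers counting error only. WT replicate 1 was unlike the others: 8 markers of skeletal muscle and squamous epithelium summed to 10882 CPM in it and to 15.9 to 45.8 CPM in the others. WT replicate 3 had the lowest kappa sum, and the locus sums are also given without either of these libraries. The edited gene was not lost as RNA. Tmprss2 stood at 50.5, 62.0 and 65.7 CPM in WT and 46.1, 56.4 and 47.0 CPM in KO, so its level does not check the labels.

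Immunoglobulin V segments, taken as a sum, stood higher in every KO library. The 33 heavy rows summed to 17.1, 19.8 and 14.2 CPM in WT replicates 1 to 3 and to 40.2, 37.2 and 28.4 CPM in KO replicates 1 to 3. WT libraries averaged 17.01 ± 2.82 CPM and KO libraries 35.3 ± 6.15 CPM (SD, n = 3 each), a ratio of 2.07, of 2.08 without WT replicate 1 and of 1.91 without WT replicate 3. The 65 kappa rows summed to 34.4, 41.3 and 17.3 CPM in WT and to 64.7, 76.6 and 57.4 CPM in KO. On average this was 31.0 ± 12.3 CPM against 66.2 ± 9.66 CPM (SD, n = 3 each), a ratio of 2.13. Leaving out WT replicate 1, 2 or 3 gave kappa ratios of 2.26, 2.56 and 1.75. At both loci every KO library lay above every WT library. In lung tissue, more cells of a type and more RNA per cell cannot be told apart, and that holds for each value here.

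T cell receptor V segments, taken as a sum, showed no such separation. The 7 beta rows summed to 1.59, 2.503 and 3.75 CPM in WT and to 2.46, 2.52 and 4.59 CPM in KO, a ratio of 1.22, of 1.02 without WT replicate 1 and of 1.56 without WT replicate 3. The 4 alpha/delta rows summed to 2.17, 2.83 and 2.36 CPM in WT and to 2.07, 2.40 and 2.42 CPM in KO, a ratio of 0.936, of 0.884 without WT replicate 1 and of 0.919 without WT replicate 3. The groups overlapped at both loci. The alpha/delta sums rest on 64 to 94 counts per library and the beta sums on 47 to 144. LOC108353026, which stood lower in KO, held 61.8% to 100% of these alpha/delta counts, so that sum mostly follows 1 row. The others, LOC102546917, LOC102555589 and LOC290156, had few counts and log2 fold changes above 0 in a fit with no filter on low counts. These sums over members carry no test, since the members were chosen with results of these data known.

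**Figure D1:**
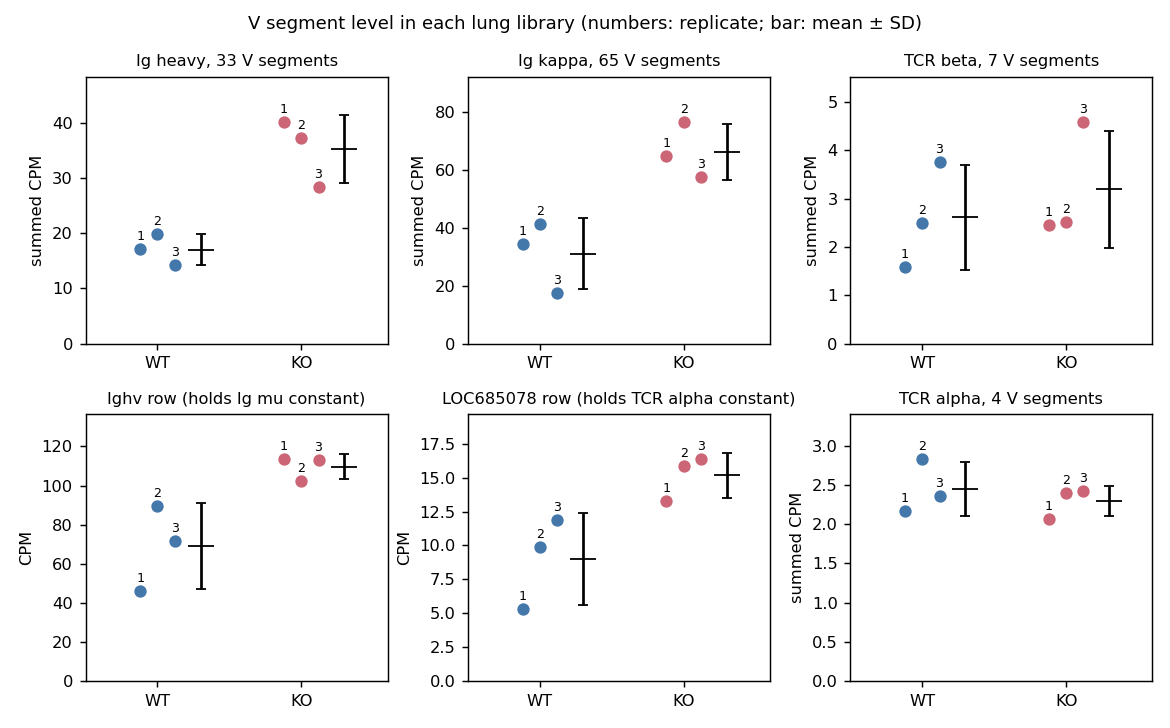
Each panel plots CPM on the vertical axis for the 3 WT (blue) and 3 KO (red) libraries, numbered by replicate, with the mean and SD as a bar. The heavy and kappa sums and both rows that hold a constant region show every KO library above every WT library, while the alpha and beta V segment sums overlap.

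The 2 rows that hold a constant region stood higher in every KO library, and neither passed the test with all 6 libraries. Ighv, the IgM heavy row and the most abundant member at a mean of 39.9 FPKM (fragments scaled for gene length and library size, as deposited), had 1359, 2974 and 2680 counts in WT and 3510, 3249 and 3545 in KO. WT replicate 1 was by far the lowest, and all KO libraries lay above all WT libraries. The log2 fold change came to 0.66 (SE 0.22, edgeR adjusted p = 0.364), and to 0.44 without WT replicate 1 (SE 0.10, edgeR adjusted p = 0.0319). LOC685078, the T cell receptor alpha row, at 12.3 FPKM, had 156, 328 and 442 counts in WT and 410, 503 and 514 in KO. In CPM the groups did not overlap, from 5.28, 9.89 and 11.8 in WT to 13.3, 15.9 and 16.4 in KO. That is 0.75 on the log2 scale (SE 0.29, edgeR adjusted p = 0.408), and 0.48 without WT replicate 1 (SE 0.14, adjusted p = 0.0984).

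No single V segment passed the test with all 6 libraries. Of the 111 members, 79 passed the filter on low counts (25 heavy, 46 kappa, 2 alpha/delta and 6 beta) and 32 did not. By edgeR's quasi-likelihood test, 0 of the 79 had an adjusted p under 0.05, against 10 of all 18464 genes tested (0.0542%). The smallest adjusted p was 0.133. An unadjusted p under 0.05 was found for 27 members, 26 higher and 1 lower in KO, against 11.3% of all genes tested (5.04% higher and 6.29% lower). Without the rows that hold a constant region, these were 24 higher and 1 lower of 77 tested. DESeq2 on the same genes called 12 members, all higher, against 1.05% of genes higher. It also called 12, all higher, when run on all genes with a count, against 0.525% of genes higher, and limma-voom called 0, against 0.0379% of genes. The authors' deposited table of 192 genes holds 12 V segments, all higher in KO, against 0.465% of genes higher there, and they were the same 12 that DESeq2 called here. No gene in that table has an absolute log2 fold change under 1.001, a limit not used here. The submitters' notes name the same version of DESeq2, so the match is no separate support. These 12 include LOC690499, LOC690275 and LOC108351347, which met the count threshold of the members through KO libraries alone. LOC500159, with a WT mean of 1.79 normalized counts by the authors' values, did so too. Other rows of the 12 may be of this kind, and their number is not given here. All 20 members of that kind had a log2 fold change above 0, so their calls are not independent of how members were chosen. The result differed between tools, and the edgeR fit gives the calls below unless another is named.

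Without WT replicate 1, edgeR tested 105 members and called 14, of which 13 rose and 1 fell. In that fit 3.99% of all genes were called, 1.65% higher and 2.34% lower. The 13 that rose were 3 heavy and 10 kappa rows, and the row that fell was the kappa segment LOC690781. One of the heavy rows was Ighv, so 12 rose when the rows that hold a constant region are left out. Only 2 WT libraries stand behind these calls. The filter on low counts asks for fewer libraries when a group is smaller, so more members were tested here. The calls include LOC690499 and LOC690275, which met the count threshold of the members through KO libraries alone. LOC690781 met it through WT libraries alone, so the calls of these named rows are not independent of how members were chosen. Whether other rows of the 14 met it through 1 group alone is not listed here. Leaving out any other single library gave 0 calls among the members. Of the 14 rows, 6 were among the 12 that DESeq2 called with all 6 libraries.

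Over all 111 members, the median log2 fold change was 1.12, against 0.0134 over the 27636 genes with any count, both fitted with no filter on low counts. It was 1.46 for heavy, 1.24 for kappa, 0.92 for alpha/delta and 0.19 for beta rows, with 87 members above 0 and 24 below. In CPM, every KO library lay above every WT library for 35 members, against 11.2% of 19375 genes that met the same count threshold, and below for 3, against 11.2% as well. The 35 were 10 heavy, 24 kappa and 1 alpha/delta row. They include both rows that hold a constant region, Ighv and LOC685078, and LOC685078 is the alpha/delta row. Without these 2 rows, 33 of 109 members lay above and 3 below. The 3 lower ones were the kappa rows LOC690527 and LOC102549260 and the alpha row LOC108353026. For 20 members no WT library reached 10 counts, so that they met the threshold through KO libraries alone, and 15 of these were among the 35. For 7 members no KO library reached 10 counts, and these all overlapped. Among the 84 members with 10 counts in at least 1 library of each group, 20 lay above and 3 below, and the median log2 fold change was 0.91. Over the 18939 genes that met this same rule, 10.8% lay above and 11.02% below, with a median of -0.0027.

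**Figure D2:**
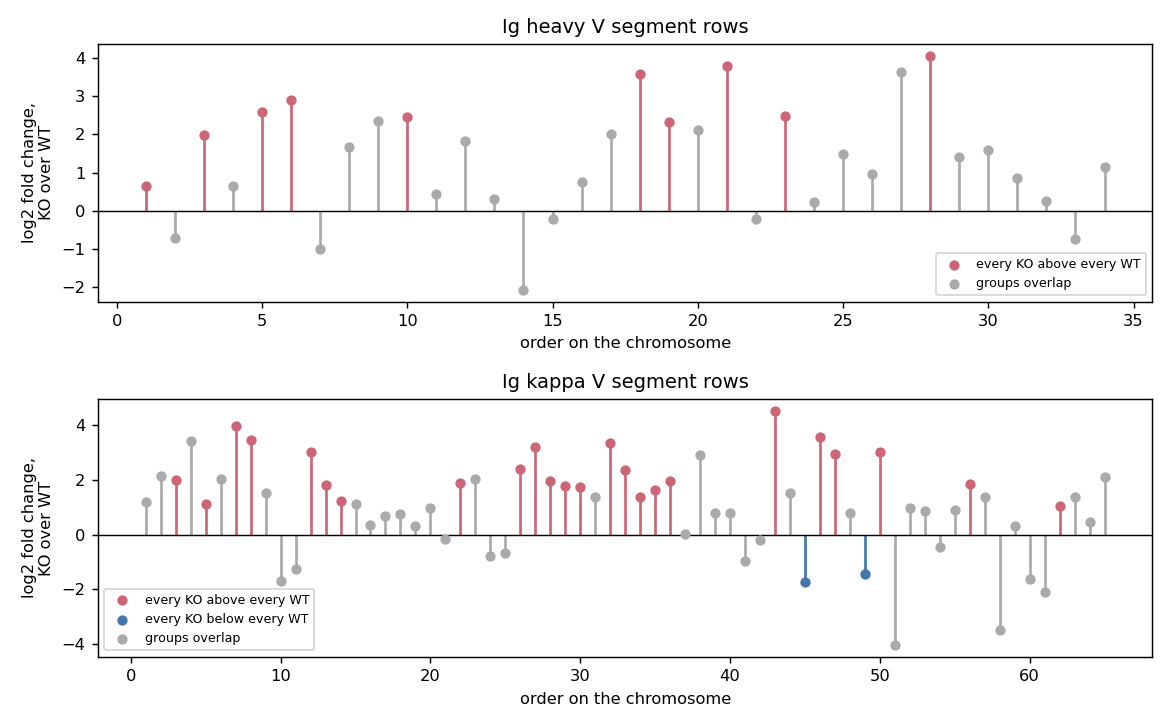
Each stem is 1 V segment row, placed by its order along chromosome 6 (heavy, upper panel) or chromosome 4 (kappa, lower panel), with the log2 fold change of KO over WT, fitted with no filter on low counts, on the vertical axis. Red marks rows with every KO library above every WT library, blue the reverse and grey rows that overlap. Of the 99 stems, 34 are red and 2 are blue, and both signs are found along each locus.

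The heavy V segments varied from row to row. LOC120103435 (heavy 3-74-like, 2.52 FPKM) had 8, 17 and 23 counts in WT and 39, 50 and 87 in KO, and the groups did not overlap. The fitted log2 difference was 1.98 (SE 0.47, edgeR adjusted p = 0.246). LOC100363856 (heavy 3-72-like, 4.41 FPKM) had 7, 27 and 34 counts in WT and 107, 206 and 35 in KO. Its KO libraries spread widely, and KO replicate 3 was close to WT replicate 3. The fitted log2 difference was 2.47 (SE 0.72, edgeR adjusted p = 0.300), and 1.79 without KO replicate 2. LOC108351347 (heavy 3-73-like) had 0, 1 and 6 counts in WT and 34, 27 and 18 in KO, near the floor in WT (edgeR adjusted p = 0.248). DESeq2 called these 3 rows, with adjusted p of 0.0130, 0.0173 and 0.0111. LOC108351347 met the count threshold through KO libraries alone, so its call is not independent of how members were chosen.

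Other abundant heavy segments overlapped between the groups. LOC108348223 (V region 3-6-like, 5.88 FPKM) had 33, 107 and 44 counts in WT and 101, 55 and 80 in KO. LOC120103446 (93G7-like) had 20, 51 and 95 in WT and 96, 51 and 31 in KO, so that the groups overlapped over most of their range. LOC120093270 (heavy 2-5-like) had 48, 151 and 30 in WT and 40, 20 and 72 in KO, with its highest value in WT replicate 2. In that order, the fitted log2 differences were 0.45 (SE 0.48), 0.25 (SE 0.58) and -0.72 (SE 0.70), with edgeR adjusted p of 0.693 to 0.850. Without WT replicate 2, LOC108348223 stood at 1.13 and LOC120093270 at 0.22. The signs of LOC120103446 and LOC120093270 turn when 1 library is left out.

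Among the kappa segments, LOC682773 (kappa 2-30-like, chromosome 4, 97561079 to 97562025, 3.24 FPKM) had the smallest p of all members. Its counts were 10, 22 and 8 in WT and 115, 133 and 61 in KO, so that the lowest KO library held more counts than any WT library. WT libraries averaged 0.406 ± 0.232 CPM and KO libraries 3.29 ± 1.19 CPM (SD, n = 3 each), 8.11-fold higher. Its log2 fold change was 3.01 (SE 0.51, edgeR adjusted p = 0.133), and it rose by 2.92 without WT replicate 1 (SE 0.51, adjusted p = 0.0133). LOC690275 (K2-like, chromosome 4, 99240895 to 99241492) had 3, 4 and 4 counts in WT and 17, 54 and 40 in KO. WT libraries were low and alike, and the KO libraries were all higher but spread widely. On the log2 scale this was 3.37 (SE 0.57, edgeR adjusted p = 0.138), and 3.33 without WT replicate 1 (adjusted p = 0.0297). LOC690275 was near the floor in WT and met the count threshold through KO libraries alone. Its adjusted p values are therefore not independent of how members were chosen.

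LOC120102522 (kappa 5-2-like, chromosome 4, 96746165 to 96746737) was the kappa segment with the highest mean, 8.22 FPKM. It had 162, 19 and 14 counts in WT and 150, 171 and 141 in KO. In CPM, WT replicate 1 was the highest of all libraries, while WT replicates 2 and 3 lay far below the KO libraries. The log2 fold change was 1.21 with all 6 libraries (SE 0.90, edgeR adjusted p = 0.602), and 0.70 without WT replicate 3. Without WT replicate 1 the row rose by 3.37 (SE 0.30, adjusted p = 0.000436), the smallest adjusted p among the members in that fit. LOC500189 (kappa 4-1-like, 7.40 FPKM) had 100, 49 and 11 counts in WT and 164, 172 and 86 in KO, with WT replicate 1 within the KO range in CPM. This gave 1.40 on the log2 scale (SE 0.73, adjusted p = 0.500), and 2.36 without WT replicate 1 (SE 0.54, adjusted p = 0.0423). LOC690156 (kappa 1-27-like) had 39, 51 and 5 counts in WT and 73, 66 and 81 in KO, with no overlap, at 1.24 on the log2 scale (SE 0.70, adjusted p = 0.522). Without WT replicate 3, where both had their lowest count, LOC500189 stood at 0.89 and LOC690156 at 0.71 on the log2 scale.

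LOC102549260 (L7-like, 4.57 FPKM, chromosome 4, 100534687 to 100535373) was the abundant kappa segment that stood lower in KO. It had 67, 159 and 99 counts in WT and 8, 43 and 62 in KO, and in CPM no KO library reached the lowest WT library. The fitted log2 difference was -1.43 (SE 0.65, edgeR adjusted p = 0.453), and -1.63 without WT replicate 1 (SE 0.56, adjusted p = 0.156). LOC690781 (kappa 2-30-like, named after its values were seen) had 0, 24 and 17 counts in WT and 2, 1 and 0 in KO, and was the row that fell without WT replicate 1 (edgeR adjusted p = 0.0371). With WT replicate 1 at 0 it was too low to be tested with all 6 libraries. Without WT replicate 1 the filter on low counts asks for fewer libraries, and LOC690781 met it through the remaining WT libraries alone. Its adjusted p is not independent of how the row was chosen, so it is no separate support for a fall.

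Neighbouring kappa rows with the same closest entry went opposite ways. This cluster was chosen after its values were seen. Of 8 S107B-like rows on the minus strand of chromosome 4 between 99537264 and 100413283, the last 4 lie 32.6 to 69.4 kb apart. LOC690499 had 1, 7 and 0 counts in WT and 68, 77 and 39 in KO, and LOC690539 had 12, 5 and 0 in WT and 62, 50 and 91 in KO. Between them lie LOC690509, with 10, 10 and 0 in WT and 19, 30 and 8 in KO, and LOC690527, with 16, 45 and 30 in WT and 11, 6 and 8 in KO. LOC690499 and LOC690539 were thus far higher in every KO library and LOC690527 lower in each. DESeq2 called the first pair (adjusted p = 1.2e-05 and 0.00173), and edgeR without WT replicate 1 did too (0.0179 and 0.00834), while LOC690527 passed neither (DESeq2 adjusted p = 0.130 and edgeR 0.0772). LOC690499 met the count threshold of the members through KO libraries alone, so its calls are not independent of how members were chosen. The 8 rows summed to 2.34, 4.10 and 2.36 CPM in WT and to 6.60, 6.93 and 6.19 CPM in KO. V segments with similar sequence can share reads, and how the authors treated reads that match several places was not stated in the sources used here, so the split of reads within such a family is uncertain.

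Of the closest entries, 14 had 3 or more members. Every KO library lay above every WT library for 4 of 4 kappa 1-17-like, 3 of 3 kappa 1-27-like, 3 of 4 kappa 1-39-like, 3 of 5 K2-like, 2 of 3 L6-like, 2 of 3 kappa 1-33-like, 2 of 4 kappa 1-9-like and 2 of 4 heavy 3-73-like rows. The same held for 1 of 3 kappa 4-1-like, 2 of 8 S107B-like, 1 of 6 kappa 2-30-like, 0 of 4 L7-like, 0 of 3 kappa 2-29-like and 0 of 3 26-10-like rows. The share over all genes at the same count threshold was 11.2%, and differences between these groups of rows were not tested. The rows include members that met the count threshold through KO libraries alone, such as LOC690275 (K2-like), LOC690499 (S107B-like) and LOC108351347 (heavy 3-73-like). These tallies and sums are therefore not independent of how members were chosen. The K2-like rows summed to 1.39, 0.573 and 0.349 CPM in WT and to 1.84, 3.72 and 4.27 CPM in KO, a ratio of 4.26. The 4 L7-like rows summed to 2.47, 7.06 and 3.32 CPM in WT and to 0.550, 2.11 and 3.25 CPM in KO, a ratio of 0.460 with overlap. The kappa rows on the plus strand had a ratio of KO to WT of 2.29 as a sum and those on the minus strand of 1.97, so the higher level was found on both strands.

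**Figure D3:**
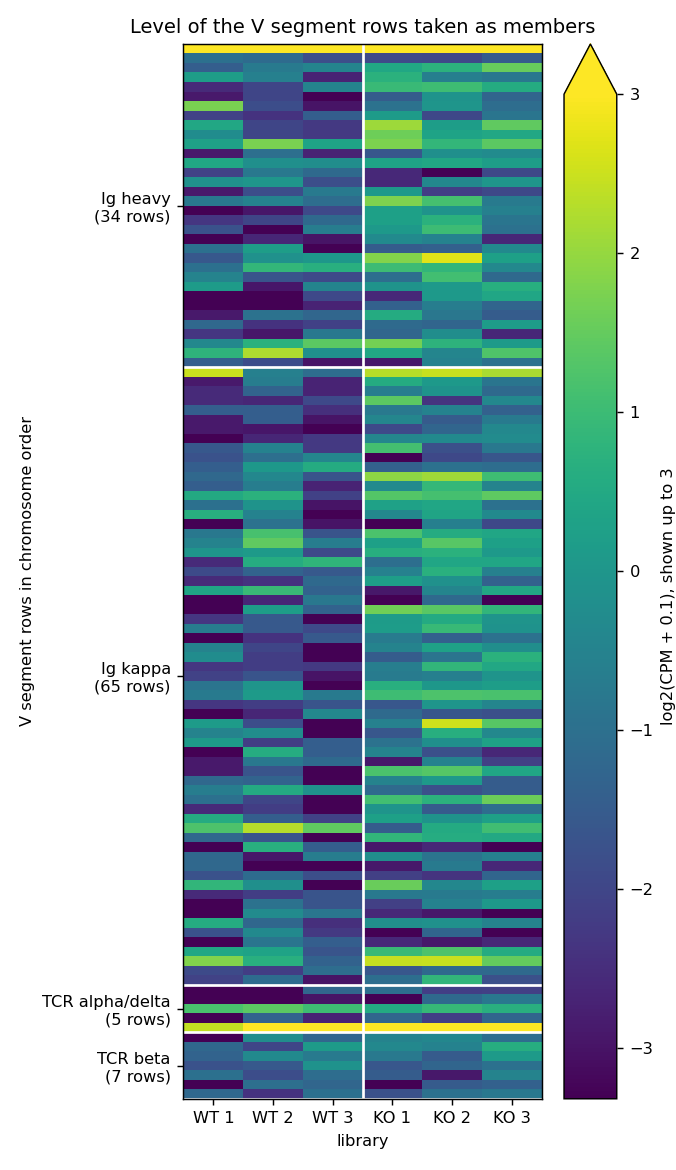
Rows are the 111 V segments in chromosome order within each locus, columns are the 6 libraries, and colour is the level as log2(CPM + 0.1), with values above 3 shown at the top of the scale. The KO columns are lighter over most of the heavy and kappa blocks, with dark rows among them, and each WT column has bright rows of its own.

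Single segments took larger shares of the locus in WT libraries. Among kappa counts, the leading segment of WT replicate 1 was LOC120102522, with 15.9% (95% Wilson interval 13.8% to 18.3%). In WT replicates 2 and 3 it was LOC102549260, with 11.6% (10.02% to 13.4%) and 15.3% (12.7% to 18.3%). In KO replicates 1, 2 and 3 it was LOC500189 with 8.21% (7.08% to 9.49%), LOC120102299 with 7.49% (6.51% to 8.61%) and LOC120102522 with 7.83% (6.68% to 9.16%). All 3 KO shares lay below all 3 WT shares. Among the counts of the 33 heavy rows, a different segment led in each library. It was LOC102555255 with 18.8% in WT replicate 1 (15.6% to 22.5%), LOC120093270 with 23.0% in WT replicate 2 (19.96% to 26.4%) and LOC120103446 with 18.0% in WT replicate 3 (14.95% to 21.5%). In KO replicates 1 to 3 it was LOC299411 with 10.1% (8.58% to 11.9%), LOC100363856 with 17.4% (15.4% to 19.7%) and LOC120103435 with 9.76% (7.98% to 11.9%). LOC102555255 (PJ14-like) had 95 counts in WT replicate 1 and 1 to 28 in the other 5 libraries.

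The spread of reads over segments was measured with the inverse Simpson index, the number of equally used segments that would give the same concentration. For kappa it was 17.6, 26.7 and 18.5 in WT replicates 1 to 3 and 29.0, 31.1 and 34.6 in KO replicates 1 to 3, with means of 21.0 ± 5.03 and 31.6 ± 2.84 (SD, n = 3 each). For the 33 heavy rows it was 12.8, 9.41 and 13.6 in WT and 17.6, 16.6 and 19.0 in KO, with means of 11.9 ± 2.22 and 17.7 ± 1.18. Every KO library was above every WT library at both loci. The rows include the members that met the threshold in 1 group alone. Over the 48 kappa members with 10 counts in at least 1 library of each group, the index was 16.4, 21.9 and 13.8 in WT and 22.3, 25.1 and 26.3 in KO. Over the 25 such heavy rows it was 11.7, 8.32 and 11.9 in WT and 15.6, 13.4 and 15.6 in KO, so the groups did not overlap there either. Corrected for the number of counts, the kappa index was 17.9, 27.3 and 19.1 in WT and 29.4, 31.5 and 35.3 in KO. The heavy index was then 13.1, 9.53 and 13.9 in WT and 17.8, 16.9 and 19.4 in KO. Kappa rows at 0 numbered 11, 1 and 15 of 65 in WT and 4, 0 and 4 in KO, in libraries with 647 to 1370 kappa counts in WT and 1801 to 2429 in KO. How far the number of rows at 0 follows these totals was not tested.

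Over all kappa members, KO libraries also resembled each other more in which segments they used. The share of kappa usage that 2 libraries had in common, summed over rows as the smaller of their shares, was 73.0% to 76.0% between KO libraries, 34.1% to 56.3% between WT libraries and 33.5% to 63.0% between a WT and a KO library. For heavy rows the ranges were 62.3% to 67.7%, 45.8% to 58.7% and 44.8% to 64.6%. The rows include members that met the count threshold through KO libraries alone, such as LOC690275 and LOC690499 (kappa) and LOC108351347 (heavy). Choosing rows in this way can raise the usage that KO libraries have in common. The shares were not computed without such members, so whether the difference remains without them was not tested. The pairs also share libraries and the counts are lower in WT, so these values are given as a description.

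**Figure D4:**
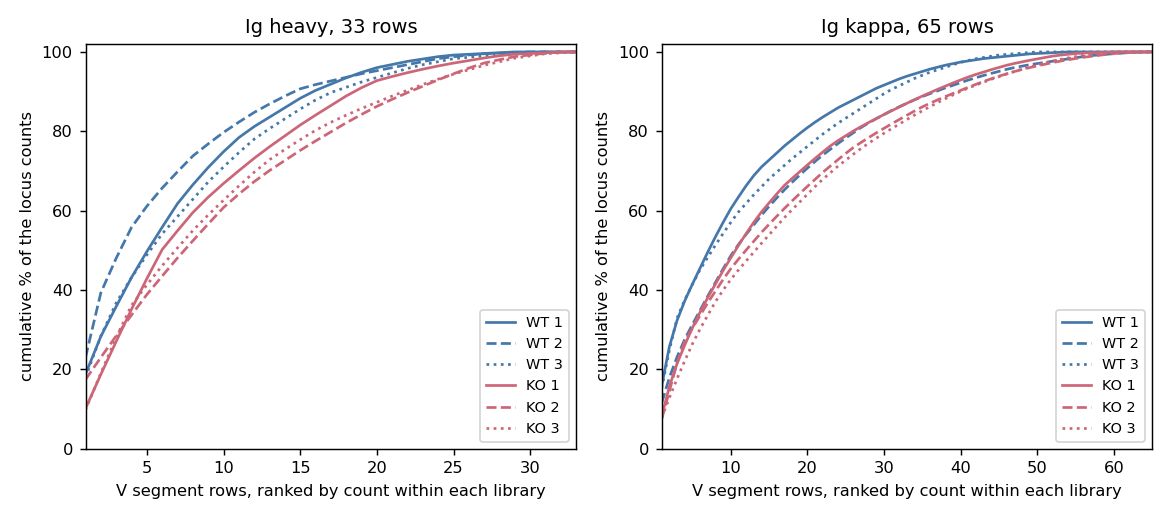
The curves give the cumulative percent of the locus counts on the vertical axis against the number of V segment rows, ranked by count within each library, for the 33 heavy rows (left) and 65 kappa rows (right). WT libraries are blue and KO libraries red, with line style for the replicate. Most WT curves rise faster at the start, as their leading segments take 11.6% to 23.0% of the counts against 7.49% to 17.4% in KO.

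Replicates of 1 genotype differed more in V segments than in other genes of like abundance. For the 82 members with a mean of 10 to 100 counts, the constant-region rows left out, the median SD between libraries of 1 group was 0.936 on the log2(CPM + 0.1) scale. It was 0.517 for the 4773 other genes in that range. Within WT the medians were 1.05 and 0.530, and within KO 0.639 and 0.381. The spread of single segments between rats was thus wider in both groups.

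The T cell receptor segments were few and low. LOC108353026 (alpha 34-like, chromosome 15, 27327456 to 27329554) was the alpha V segment with the most counts, at 64, 84 and 73 in WT and 42, 57 and 47 in KO. All KO libraries lay below all WT libraries in CPM, from 2.22 ± 0.292 in WT to 1.55 ± 0.223 in KO (SD, n = 3 each). It did not pass, at -0.51 on the log2 scale (SE 0.26, edgeR adjusted p = 0.491). LOC102555589 (alpha 9-2-like) had 0, 0 and 12 counts in WT and 12, 4 and 4 in KO. LOC102546917 (MC.7.G5-like) had 0, 10 and 2 in WT and 10, 4 and 10 in KO. LOC290156 (alpha 5-like) had 0, 0 and 1 in WT and 0, 11 and 15 in KO, and with 27 counts in all it was the member with the fewest. Just outside the threshold, LOC120102304 (kappa) had 42 counts, all of them in KO replicate 2, and LOC102552552 (kappa) had 43 of its 58 counts in WT replicate 2.

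None of the 7 beta segments separated the groups. LOC102550134 (beta 4-1-like) had 10, 5 and 37 counts in WT and 21, 19 and 45 in KO. LOC108348186 (beta 3-1-like) had 9, 23 and 19 in WT and 15, 8 and 31 in KO. LOC102550783 (E1-like) had 0, 25 and 12 in WT and 19, 21 and 12 in KO. LOC120102258 (C5-like) and LOC102551470 (beta 16-like) had 6, 8 and 31 and 10, 3 and 15 in WT, and 7, 10 and 13 and 6, 13 and 15 in KO. The 6 beta rows tested had edgeR adjusted p of 0.629 or more.

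Constant regions of the receptor chains have rows of their own, but some of their gene models overlap the span of the V segment members. Igha (chromosome 6, 132329268 to 132745478), the IgD and IgG2a rows and the T cell receptor delta constant row do so. Whether these rows also take V segment reads was not tested. Of 11 rows outside the members that are described as immunoglobulin or T cell receptor constant regions, every KO library lay above every WT library for 9 and below for 0. By edgeR, 0 of the 11 passed with all 6 libraries, 7 had an unadjusted p under 0.05, and 3 rose without WT replicate 1. Over all genes, 11.2% lay above and 11.2% below at the count threshold of the members. An unadjusted p under 0.05 was found for 11.3%, and 1.65% rose without WT replicate 1. Counting Jchain and the receptor partners below as well, DESeq2 called 9 genes, limma-voom 0 and edgeR without WT replicate 1 called 13. Of all 18464 genes tested, DESeq2 called 501 and limma-voom 0.0379%, and edgeR without WT replicate 1 called 3.99% of its genes. Igha, the IgA heavy constant region, stood at 111, 165 and 88.2 CPM in WT and 287, 374 and 264 CPM in KO, or 1.35 on the log2 scale (SE 0.25, edgeR adjusted p = 0.164). Jchain, a separate gene on chromosome 14 whose product joins IgA and IgM units into polymers, stood at 36.7, 44.8 and 31.8 CPM in WT and 92.2, 101 and 71.4 CPM in KO, at 1.22 (SE 0.18, adjusted p = 0.103). The IgD constant row LOC103695322 stood at 4.57, 19.2 and 16.6 CPM in WT and 30.4, 32.0 and 35.9 CPM in KO, at 1.28 (SE 0.46, adjusted p = 0.383). The KO libraries were clear of the WT libraries in each of these 3. Without WT replicate 1 they rose by 1.29, 1.21 and 0.87, with edgeR adjusted p of 0.0132, 0.00399 and 0.0023.

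The beta-2 constant row of the T cell receptor, LOC102554731, stood at 6.26, 20.1 and 20.6 CPM in WT and 27.1, 25.9 and 36.8 CPM in KO, with no overlap, while the beta V segments overlapped. The log2 difference was 0.93 (SE 0.42, edgeR adjusted p = 0.447), and 0.56 without WT replicate 1 (adjusted p = 0.0602). The IgG2a constant row LOC103692723, named after its values were seen, stood at 5.99, 5.04 and 5.42 CPM in WT and 33.5, 10.7 and 30.1 CPM in KO. It was the third constant row called without WT replicate 1, where it rose by 2.25 (adjusted p = 0.0142). Lambda V segments were under the threshold, but the lambda-2 constant row LOC120093161 stood at 0.779, 0.694 and 2.23 CPM in WT and 2.88, 5.64 and 4.66 CPM in KO, also without overlap.

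Relative to heavy constant regions, V segment sums did not separate the groups. Some of these constant rows overlap the heavy V locus, so they may not be a separate measure. Per 100 CPM of heavy constant rows, Ighv included, the 33 heavy V segments stood at 10.1, 7.10 and 7.75 CPM in WT and 8.61, 7.16 and 6.37 CPM in KO. The kappa V segments stood at 20.4, 14.8 and 9.50 CPM in WT and 13.8, 14.7 and 12.9 CPM in KO. The ratio of heavy to kappa V segments was 0.497, 0.479 and 0.816 in WT and 0.622, 0.486 and 0.495 in KO, where WT replicate 3 stood out with its low kappa sum.

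Receptor partners were tested in the same fit. Of 11 genes of the B cell receptor, 0 passed with all 6 libraries by edgeR, 8 had an unadjusted p under 0.05, and 6 rose without WT replicate 1. Among all genes tested, 11.3% had an unadjusted p under 0.05 and 1.65% rose without WT replicate 1. Cd79a, a signalling chain of that receptor, stood at 18.8, 30.9 and 25.0 CPM in WT and 37.7, 39.2 and 47.6 CPM in KO, and rose in the fit without WT replicate 1 (edgeR adjusted p = 0.0307). Syk, the kinase it recruits, stood at 54.9, 62.5 and 65.1 CPM in WT and 72.6, 76.2 and 78.0 CPM in KO, and Cd22, an inhibitory coreceptor, at 11.04, 17.6 and 16.2 and 20.8, 25.3 and 26.1 CPM. Pou2af1, the coactivator of the Oct factors at octamers, stood at 16.2, 12.9 and 13.8 CPM in WT and 19.2, 21.8 and 22.3 CPM in KO. All 4 had every KO library above every WT library, against 11.2% of all genes at the count threshold of the members. These 4 do not stand for the whole list: of the 11 genes, 9 had a log2 fold change above 0 and 2 below.

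Of 12 genes of the T cell receptor, 0 passed by edgeR with all 6 libraries, 6 had an unadjusted p under 0.05, and 3 (Zap70, Lat and Cd8a) rose without WT replicate 1. The shares over all genes for these last counts were again 11.3% and 1.65%. Cd8a, the coreceptor of cytotoxic T cells, stood at 10.4, 21.4 and 17.7 CPM in WT and 36.1, 33.5 and 38.2 CPM in KO, with an edgeR adjusted p of 0.224 with all 6 libraries and 0.002 without WT replicate 1. Lat, a signalling adaptor, stood at 5.92, 14.1 and 15.7 CPM in WT and 20.8, 21.9 and 28.6 CPM in KO. Cd4, the coreceptor of helper T cells that macrophages of the rat also express, averaged 98.9 ± 18.1 CPM across WT and 99.0 ± 2.16 CPM across KO libraries (SD, n = 3 each) and overlapped.

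Of 8 genes of V segment recombination and mutation, 5 were abundant enough to be tested. By edgeR, 0 passed, 0 had an unadjusted p under 0.05 (11.3% of all genes) and 0 were called without WT replicate 1 (3.99% of all genes). Lig4, Prkdc and Dclre1c, which join broken DNA ends in all cells, and Ung, a uracil glycosylase, overlapped between the groups. Rag1 and Rag2, the recombinase of lymphocyte precursors, stood at 0.126 CPM or less in every library.

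Summed markers of B, T and NK cells were higher in every KO library, also those of T cells, whose receptor V segment sums overlapped. By edgeR, 0 markers of B, T, NK or plasma cells passed with all 6 libraries. An unadjusted p under 0.05 was found for 8 B, 7 T, 6 NK and 5 plasma cell markers, and without WT replicate 1 the test called 6, 3, 8 and 3, all higher. Over all genes tested the shares were 11.3% with an unadjusted p under 0.05 and 1.65% called higher without WT replicate 1. The 12 B cell markers summed to 104 to 156 CPM in WT and 191 to 232 CPM in KO, with 9 of 12 higher in every KO library and none at 0. The 16 T cell markers summed to 221 to 266 and 319 to 381 CPM, with 11 of 16 higher and only Themis at 0 in a library. The 11 NK cell markers summed to 32.0 to 153 and 267 to 276 CPM, with all 11 higher. Of all genes at the count threshold of the members, 11.2% were higher in every KO library and 11.2% lower. The 11 plasma cell markers summed to 646 to 905 CPM in WT and 663 to 693 CPM in KO, with 4 higher and 3 lower, and most of that sum came from Sdc1 and Xbp1, which epithelium also expresses. Lung epithelial markers summed to 24569 to 35574 CPM in WT and 22336 to 24565 CPM in KO. These are RNA values of whole lung. Whether cell content differed, and what part that had in the V segment values, was not tested.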

How the data were processed

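Poly-A selected RNA of whole lung was sequenced as paired 150 base reads from 3 WT and 3 KO rats in 1 batch, per the labels. The sample titles give the genotype and call the rats biological replicates. The submitters' processing notes name featureCounts 2.0.6, HISAT2 2.2.1, StringTie 2.2.3, CASAVA and DESeq2 1.42.0, with mRatBN7.2 as the build. What each tool did, strand handling and the fate of reads with several matches were not stated in the sources used here. This matters for V segments, whose copies are similar in sequence.

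Raw counts per gene and FPKM values were deposited, and a table of the authors' own comparison, which lists p-values, log2 fold changes and, per library, a size-factor normalized signal. Counts were used as deposited, the FPKM values only to compare levels between genes and in an alternative, and the authors' table only for its log2 values and calls. Among member counts of 1 to 20, 55.9% were even, and 63.3% among all genes, so counts may hold both mates of a pair and the intervals printed are then too narrow.

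Counts were tested with edgeR 4.0.16 in R 4.3.3 (TMM, filterByExpr with its default minimum of 10 counts and total of 15, glmQLFit and glmQLFTest, genotype as the only term). Benjamini-Hochberg adjustment covered all 18464 tested genes at 0.05. Fits without a filter, DESeq2 1.42.0, limma 3.58.1 and the omission of each library were alternatives. CPM uses TMM library sizes, and locus sums, indices and shares are values per library with no test. Of the members, 109 of 111 matched the RefSeq gene table of GRCr8, used for names and promoter windows alone.

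The members, lists and tests were chosen with earlier results of these data known. The naming rule takes, in each locus, the 5 V segments with the highest mean CPM and the 2 with the smallest p (23 in all), each V segment that passes the test with all 6 libraries, and up to 4 constant rows and 4 partners per list by mean CPM. Some partner genes are not reported here by name. The marker lists cover B, plasma, T and NK cells, lung epithelium, and skeletal muscle with squamous epithelium.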

Additional observations from a re-analysis of the deposited data

Results flagged for a closer look

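V segment rows under the threshold of the report also held signal. The 180 such rows, without 1 lambda row whose description names a constant region, summed to 3.52, 7.90 and 7.96 CPM in WT replicates 1 to 3 and to 8.16, 12.01 and 8.07 CPM in KO replicates 1 to 3. Every KO library lay above every WT library, by little for KO replicates 1 and 3 against WT replicates 2 and 3. Each of these rows is too low to be compared alone.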

How the results depend on the processing

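The count of V segments called was 0 with all 6 libraries by edgeR and also with the other normalizations, the robust fit, the other filters, limma-voom and limma on log2 FPKM. It was 14 without WT replicate 1 (range 0 to 14 over libraries left out), 12 with DESeq2 and 12 with DESeq2 on all genes with a nonzero count. Calls among all genes were 10, with 1 to 758 over libraries left out, 501 with DESeq2 and 403 with DESeq2 on all nonzero genes. Calls among constant rows, Jchain and partners were 0, with 0 to 13 over libraries left out, 9 with DESeq2 and 8 with DESeq2 on all nonzero genes. The number of V segments with every KO library above every WT library was 35, and 42 to 50 when 1 library was left out, where fewer libraries have to be separated.

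As log2 of KO over WT, the heavy sum went from 0.75 to 1.05 without its constant-region row, which is also its row with the highest mean, and the alpha/delta sum from 0.61 to -0.10 without its own. The kappa sum stayed between 0.81 and 1.36 over libraries left out. The heavy inverse Simpson index went from 0.13 to 0.31 with Shannon entropy and to 0.57 without the constant-region row. The alpha/delta index went from -0.24 to -0.11 and to 0.72 in the same way. The kappa index went from 0.59 to 0.91 with rows of at least 50 counts in 3 or more libraries, and the beta index from 0.018 to 0.18 with all nonzero rows. Sums and indices over only the members with 10 counts in both groups, an alternative chosen after seeing the data, stayed within 1 SD of their values at all 4 loci. The kappa to lambda ratio was not run, since no lambda row was a member.

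Among 23 named V segments, 310 alternative values kept direction and side of the threshold, 15 passed it and 7 turned in sign. All 7 came from leaving out 1 library, over which LOC120093270 ranged from -1.27 to 0.22 (above 0 without WT replicate 2), LOC120103446 from -0.30 to 0.77 (below 0 without KO replicate 1, and at -0.11 without WT replicate 1), LOC108348186 from -0.45 to 0.54 (below 0 without KO replicate 3, and at -0.060 without WT replicate 1), LOC120102258 from -0.75 to 0.51 (above 0 without WT replicate 3) and LOC102551470 from -0.040 to 0.76 (below 0 without WT replicate 2). The cause was not tested.

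Replicate numbers did not pair the samples: deviations from the group means correlated at -0.081, 0.027 and -0.085 across genes for same-numbered libraries. With a replicate block, 0 V segments, 0 constant rows and partners and 2 of all genes were called. With 27 to 657 counts per V segment outside the constant-region rows, single segments are limited by counting as well as by the spread between rats.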
